A study of Homo sapiens with 24 samples.

Results

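Integrin and laminin subunit genes were followed across 2 human breast cancer cell lines, 2 treatments and 2 sorted cell fractions. Members were chosen by gene symbol alone, as integrin alpha subunits, integrin beta subunits and laminin alpha, beta and gamma chains, on probe sets that name 1 gene. This gave 35 members among the 22395 named genes tested, with 17 integrin alpha, 8 integrin beta and 10 laminin genes, and each of them had 1 probe set. A further 2 probe sets that name an integrin subunit together with another gene, ITGA1 with PELO and ITGB3 with EFCAB13, were not used.

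The arrays came from SUM159, a mesenchymal-type line that lacks hormone receptors and HER2 amplification, and from T47D, a luminal line that expresses the oestrogen receptor. Both are long-established lines grown as monolayers, so no stroma or tissue matrix was present. The cells received DMSO, the vehicle, or the small molecule ID8 at 5 µM for 72 hours, and were then sorted with the Aldefluor assay, whose fluorescence reports aldehyde dehydrogenase activity, on a gate drawn from a tube with the enzyme inhibitor DEAB. The groups are therefore SUM159 and T47D cells, each with DMSO or ID8 and each as Aldefluor+ or Aldefluor- cells, which makes 8 groups of 3 arrays. Each array of a group came from a separate experiment, numbered 2, 3 and 4 for SUM159 and 5, 6 and 7 for T47D, and all 4 groups of a line are represented once per experiment. Flasks were pooled within an experiment before sorting.

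Integrins are heterodimers of 1 alpha and 1 beta subunit that tie the extracellular matrix to the actin cytoskeleton, and the partner a subunit finds decides which ligand the pair can hold. ITGB1 pairs with most alpha subunits, among them the collagen receptors ITGA2 and ITGA10, the fibronectin receptor ITGA5 and the laminin receptors ITGA3 and ITGA6, whereas ITGB3, ITGB5, ITGB6 and ITGB8 pair with ITGAV and bind ligands such as vitronectin or latent TGF-beta. Laminins are secreted trimers of an alpha, a beta and a gamma chain that build the basement membrane on which mammary epithelium sits, and ITGA6 with ITGB4 anchors epithelial cells to them at hemidesmosomes.

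Values are log2 signals that the authors had already adjusted for batch, and that adjustment also took away most of the difference between the lines. The difference between line means had an SD of 0.118 over all genes, and among the members it was at most 0.43, for ITGA3, so levels are not compared between lines. The direction of line markers was still present. In SUM159, 7 of 7 measured SUM159 markers were the higher, and in T47D 9 of 9 T47D markers were. ALDH1A1, an enzyme of the Aldefluor reaction, was 7.54-fold higher in Aldefluor+ than in Aldefluor- SUM159 cells (log2 difference 2.91 ± 0.12 SE, limma adjusted p = 1.27e-09), but differed by 0.09 ± 0.12 in T47D (adjusted p = 0.859), where ALDH1A3 differed by 0.43 ± 0.14 (adjusted p = 0.226). Of the leukocyte markers, 7 of 9 measured lay below a log2 signal of 2, PTPRC among them at a mean of 0.91, while CD68 and SPI1 did not. All measured platelet (4), endothelial (4) and fibroblast (3) markers lay below 2. Values of 1 array, SUM159 DMSO Aldefluor+ of experiment 4, spread less than the rest (interquartile range 2.88, against 2.97 to 3.12 on the other 23 arrays).

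A log2 signal of 2 was used as the limit of low signal, because 49% of all genes had a mean below it. Of the members, 17 had a mean over the 24 arrays of at least 2 and 18 lay below it (51.4%). The 17 were ITGA2, ITGA3, ITGA5, ITGA6, ITGA10, ITGAV, ITGB1, ITGB3, ITGB4, ITGB5, ITGB6, ITGB8, LAMA1, LAMA5, LAMB1, LAMB2 and LAMC1. Of these, ITGA10, ITGB6 and LAMA1 sat close to the limit with means of 2.05, 2.04 and 2.10. The 8 integrin genes known best from leukocytes (ITGAL, ITGAM, ITGAX, ITGAD, ITGAE, ITGA4, ITGB2 and ITGB7) were all below 2, with means from 0.63 to 1.75. ITGA2B, the platelet partner of ITGB3, had a mean of 0.99, so ITGAV was the only alpha partner of ITGB3 with a signal above the limit. Arrays carry no count depth, and their number limits the precision. In these bulk fractions, fewer cells expressing a gene and less RNA per cell cannot be told apart.

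**Figure D1:**
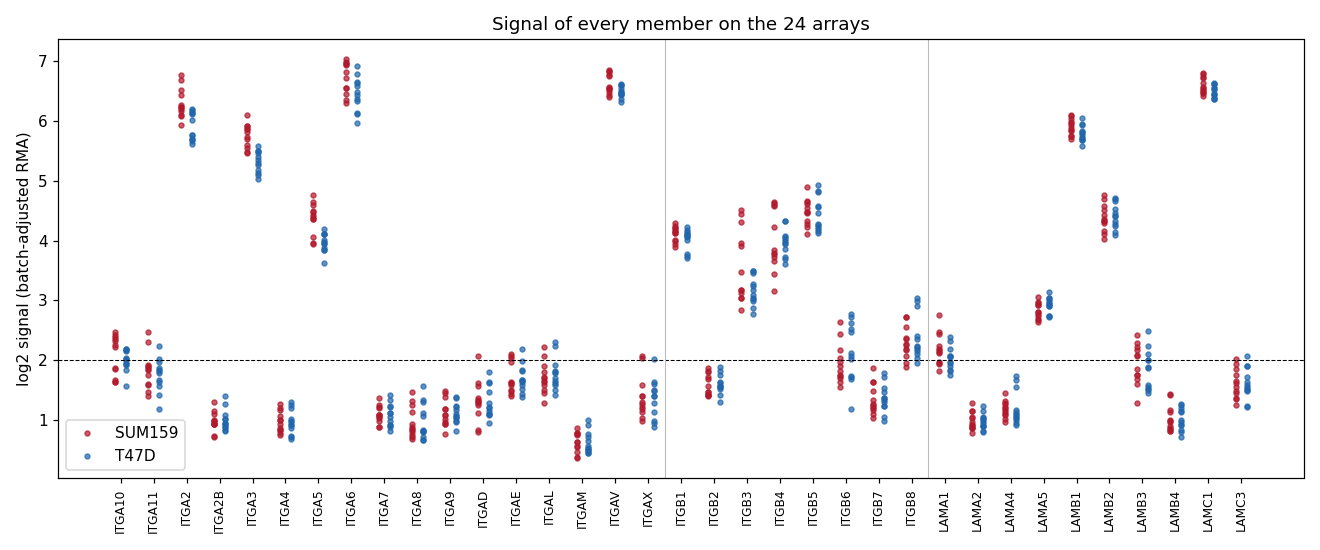
Log2 signal (vertical axis) of each of the 35 members on every array, SUM159 in red and T47D in blue, with the dashed line at 2. The 17 members with a mean of at least 2 include the epithelial integrins and the chains LAMB1, LAMB2 and LAMC1, whereas 18 members lie mostly below the line.

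Of the 35 members, 4 passed the test in at least 1 comparison. These were ITGB3, which rose with ID8 in SUM159, ITGA2 and ITGA10, which differed between Aldefluor fractions, and ITGA6, whose ID8 difference was unequal between the lines. Calls were made with limma at an adjusted p under 0.05 over all 22395 genes. The 4 are pooled over all comparisons, and the share of all genes called in at least 1 comparison was not counted. The shares of all genes given below are for single comparisons, so they are no reference for this pooled count. Whether the members were called more often than other genes was not tested. For ITGA2 and ITGA10, which both code for collagen-binding subunits and differed in opposite directions between the same SUM159 fractions, RefSeq (GRCh38.p14) gives the 250 bases before the annotated start of the gene as follows, 5′ to 3′ on the strand of the gene, with GC boxes (GGGCGG) and TEAD motifs (GGAATG) in capitals on either strand.
ITGA2, chr5:52989102-52989351, plus strand: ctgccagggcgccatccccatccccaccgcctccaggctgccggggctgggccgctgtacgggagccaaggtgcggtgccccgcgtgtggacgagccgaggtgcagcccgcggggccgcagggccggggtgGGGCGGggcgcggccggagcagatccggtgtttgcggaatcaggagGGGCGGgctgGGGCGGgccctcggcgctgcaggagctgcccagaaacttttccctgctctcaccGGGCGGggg
ITGA10, chr1:145910051-145910300, minus strand: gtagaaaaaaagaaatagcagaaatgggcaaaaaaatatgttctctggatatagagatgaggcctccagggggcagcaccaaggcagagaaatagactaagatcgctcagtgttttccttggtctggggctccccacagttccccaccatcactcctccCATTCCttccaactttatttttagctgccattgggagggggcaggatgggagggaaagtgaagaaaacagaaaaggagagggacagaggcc
The window of ITGA2 holds 4 GC boxes and is 76.4% G or C, and that of ITGA10 holds 1 TEAD motif, read on the other strand, and is 48.4% G or C. Of the other called members, the window of ITGA6, not printed, holds no GC box and no TEAD motif and is 50.8% G or C. ITGB3 matched no window. Of the members, 24 of 35 matched a RefSeq window, and 12 of them (50%) held a GC box, against 42.6% of all 35116 windows of this length. The TEAD motif was in 4 members (16.7%, against 11.9%), and the AP-1 motif TGANTCA was in 0 (0%, against 6.57%). Each matched member had 1 window, that of its outermost annotated start, whereas the 35116 windows were not reduced to 1 a gene. The shares are therefore over unlike units. The motifs do not overlap in the windows printed, and a match describes letters only.

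With ID8 in SUM159 cells, ITGB3 was the only member past the test, and it was so in the Aldefluor- cells and over both fractions. In Aldefluor- cells its log2 signal was 3.04, 3.17 and 2.84 with DMSO and 4.30, 4.50 and 4.45 with ID8. In Aldefluor+ cells it was 3.12, 3.18 and 3.05 with DMSO and 3.91, 3.48 and 3.96 with ID8. Every ID8 array of SUM159 lay above every DMSO array of its fraction, and the ID8 Aldefluor- arrays were the highest of all. The difference in Aldefluor- cells was 1.40 ± 0.18 (SE, 2.64-fold, adjusted p = 0.00181), and the signal was higher in 3 of 3 experiments. Averaged over both fractions it was 1.03 ± 0.13 (2.05-fold, adjusted p = 0.000669). In Aldefluor+ cells alone it was 0.67 ± 0.18 (1.59-fold, adjusted p = 0.16), and the difference between the ID8 effects of the fractions was -0.74 ± 0.26 (adjusted p = 0.605). The call over both fractions held when any experiment was left out, at differences from 0.92 to 1.14, whereas the call in Aldefluor- cells was lost without experiment 4 (1.30, adjusted p = 0.0964).

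**Figure D2:**
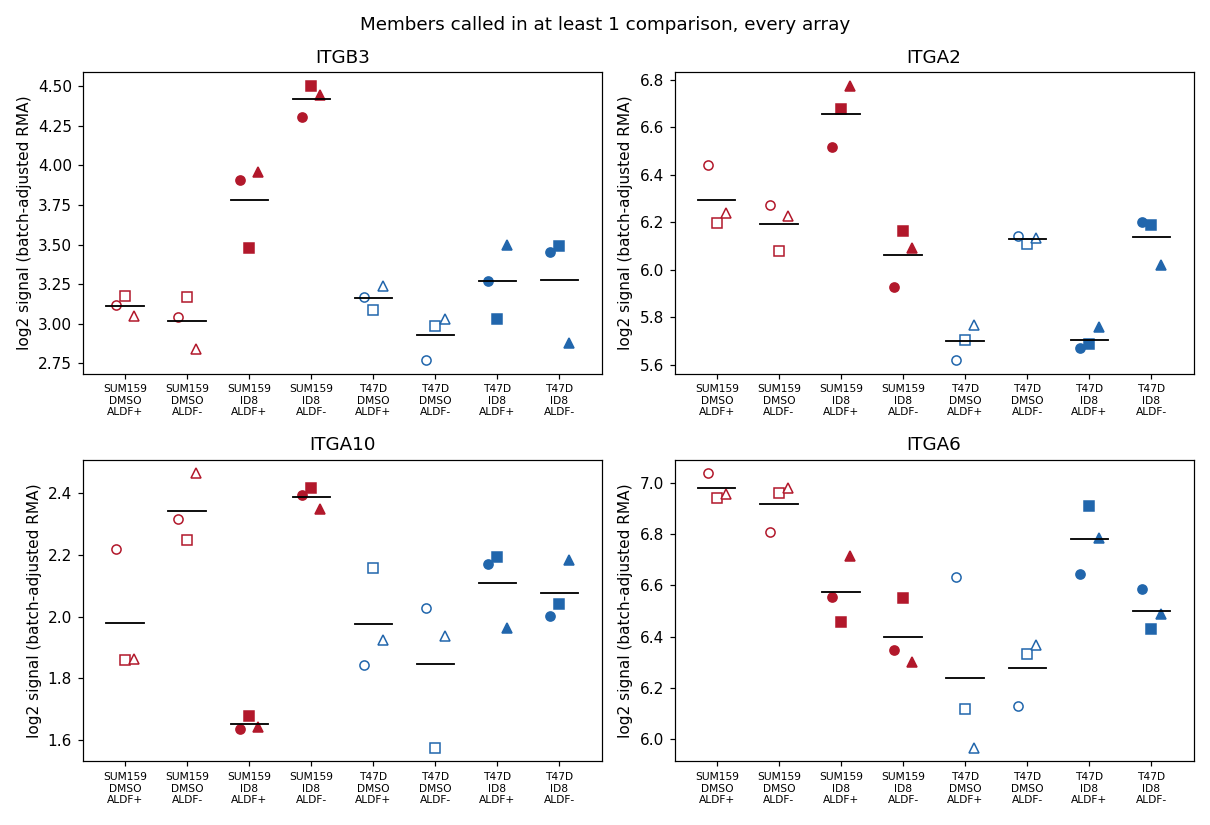
Log2 signal (vertical axis) of ITGB3, ITGA2, ITGA10 and ITGA6 on each array by group (ALDF, Aldefluor), with open symbols for DMSO, filled ones for ID8, circles, squares and triangles for experiments 2, 3 and 4 of SUM159 or 5, 6 and 7 of T47D, and bars for group means. ITGB3 reached a mean of 4.42 in SUM159 ID8 Aldefluor- cells against 3.02 with DMSO, and ITGA2 was higher in Aldefluor+ cells of SUM159 with ID8 but lower in those of T47D.

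Among the 35 members, 1 was called higher and 0 lower in SUM159 Aldefluor- cells, where 0.277% of all genes were called, and 1 and 0 over both fractions, where 0.688% were. In SUM159 Aldefluor+ cells limma called 0 members and 0.241% of all genes, while 7 members and 10.3% of all genes had an unadjusted p under 0.05. Leaving out 1 experiment of SUM159 took the count of all genes called over both fractions from 154 to 45 to 53, in Aldefluor+ cells from 54 to 3 to 13 and in Aldefluor- cells from 62 to 8 to 21, and without experiment 6 of T47D it was 20 in Aldefluor+ cells and 41 in Aldefluor- cells. The median difference of the members was -0.01 over both fractions, as it was for all genes (-0.01), with 16 of 35 above 0. The median was -0.004 for integrin alpha, -0.055 for integrin beta and 0.000 for laminin genes.

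Among members with a mean of at least 2, the others with the 3 highest and 3 lowest averaged ID8 differences in SUM159 did not pass the test. ITGAV, the alpha partner of ITGB3, had a log2 signal of 6.54, 6.53 and 6.54 with DMSO and 6.81, 6.75 and 6.85 with ID8 in Aldefluor+ cells. In Aldefluor- cells it was 6.48, 6.41 and 6.44 with DMSO and 6.58, 6.84 and 6.76 with ID8. These arrays did not overlap between treatments in either fraction, nor did those of ITGA3, ITGA6 and ITGB3. The averaged difference of ITGAV was small, at 0.28 ± 0.08 (1.21-fold, adjusted p = 0.143). ITGA6 and ITGA3, both alpha subunits of laminin receptors, had differences of -0.46 ± 0.11 (adjusted p = 0.0657) and -0.33 ± 0.10 (adjusted p = 0.206). LAMB2, a laminin beta chain, differed by -0.22 ± 0.09 (adjusted p = 0.372) and LAMB1 by 0.20 ± 0.07 (adjusted p = 0.269). Of the members below a mean of 2, ITGAE (0.23 ± 0.15) stood above LAMB1, and ITGAX (-0.33 ± 0.21) and ITGA9 (-0.26 ± 0.10) stood below LAMB2, none past the test. Within Aldefluor+ cells LAMB2 differed by -0.50 ± 0.13 (adjusted p = 0.147), with 4.76, 4.58 and 4.70 for DMSO and 4.33, 4.03 and 4.17 for ID8. Its ID8 arrays all lay below its DMSO arrays in that fraction, and in Aldefluor- cells the difference was 0.07 ± 0.13 (-0.060 without experiment 2).

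With ID8 in T47D cells no member passed the test. Limma called 0 of 35 in Aldefluor+ cells, 0 in Aldefluor- cells and 0 over both fractions, against 0.375%, 0.0179% and 0.505% of all genes. At an unadjusted p under 0.05 there were 4, 5 and 6 members, beside 10.8%, 6.6% and 10.9% of all genes. The count of all genes called in Aldefluor+ cells, 84, was 1 without experiment 5, 4 without 6, 4 without 7 and 51 without 3. Over both fractions the count, 113, was 4, 7 and 18 without 5, 6 and 7, and in Aldefluor- cells the count, 4, was 0 to 3 with 1 experiment left out. The median difference of the members over both fractions was 0.01, beside -0.01 for all genes, with 18 of 35 above 0. ITGB3, which rose in SUM159, differed by 0.22 ± 0.13 here (adjusted p = 0.57).

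Among members with a mean of at least 2, those with the highest averaged ID8 differences in T47D were ITGB6 and ITGB8, the beta subunits that let ITGAV bind latent TGF-beta, and ITGA6. In Aldefluor+ cells ITGB6 was 1.72, 2.12 and 1.69 with DMSO and 2.52, 2.62 and 2.73 with ID8. In Aldefluor- cells it was 2.07, 1.18 and 1.74 with DMSO and 2.02, 2.77 and 2.47 with ID8. The groups overlapped in Aldefluor- cells only, and the DMSO values were near the limit of low signal. The averaged difference of ITGB6 was 0.77 ± 0.19 (1.70-fold, adjusted p = 0.0946). ITGB8 was 2.16, 2.24 and 2.22 with DMSO and 2.91, 2.99 and 3.05 with ID8 in Aldefluor+ cells. In Aldefluor- cells it was 2.40, 2.04 and 2.10 with DMSO and 1.95, 2.19 and 2.36 with ID8. The ID8 Aldefluor+ arrays of ITGB8 thus stood above the other 9 arrays of T47D, with a difference in that fraction of 0.78 ± 0.21 (1.71-fold, adjusted p = 0.146). Its averaged difference was 0.38 ± 0.15 (adjusted p = 0.336). ITGAV differed by -0.07 ± 0.08. At the low end of the same members stood LAMA1 (-0.23 ± 0.11, adjusted p = 0.481), ITGB1 (-0.09 ± 0.11, adjusted p = 0.836) and ITGB5 (-0.08 ± 0.16, adjusted p = 0.912). Of the members below a mean of 2, 7 lay below ITGB5, the lowest being ITGA8 (-0.38 ± 0.15, adjusted p = 0.367) and ITGA11 (-0.27 ± 0.16, adjusted p = 0.591).

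The ID8 difference of ITGA6 was unequal between the lines. In SUM159 Aldefluor+ cells its log2 signal was 7.04, 6.94 and 6.96 with DMSO and 6.56, 6.46 and 6.71 with ID8. In SUM159 Aldefluor- cells it was 6.81, 6.96 and 6.98 with DMSO and 6.35, 6.55 and 6.30 with ID8. All SUM159 ID8 arrays lay below all SUM159 DMSO arrays. In T47D Aldefluor+ cells ITGA6 was 6.63, 6.12 and 5.97 with DMSO and 6.64, 6.91 and 6.79 with ID8. In T47D Aldefluor- cells it was 6.13, 6.33 and 6.37 with DMSO and 6.59, 6.43 and 6.49 with ID8. The T47D ID8 arrays were the higher within each fraction, by 0.01 to 0.82 within an experiment. The averaged differences were -0.46 ± 0.11 in SUM159 (adjusted p = 0.0657) and 0.38 ± 0.11 in T47D (adjusted p = 0.154), neither past the test. The difference between them, SUM159 minus T47D, was -0.84 ± 0.15 (adjusted p = 0.0163).

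ITGA6 was the only member called for a difference of ID8 effects between lines, against 0.647% of all genes, a count of 145 that was 18 to 85 with 1 experiment left out. Its call was lost when any experiment other than number 5 was left out, at differences between -0.80 and -0.85 and adjusted p from 0.0824 to 0.11. For ITGB3 the difference between lines was 0.81 ± 0.18 (adjusted p = 0.0533) and for ITGB6 -0.99 ± 0.27 (adjusted p = 0.125). For ITGB1, the beta partner of ITGA6, it was 0.12 ± 0.16, and for ITGB4, its other partner, -0.08 ± 0.26.

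**Figure D3:**
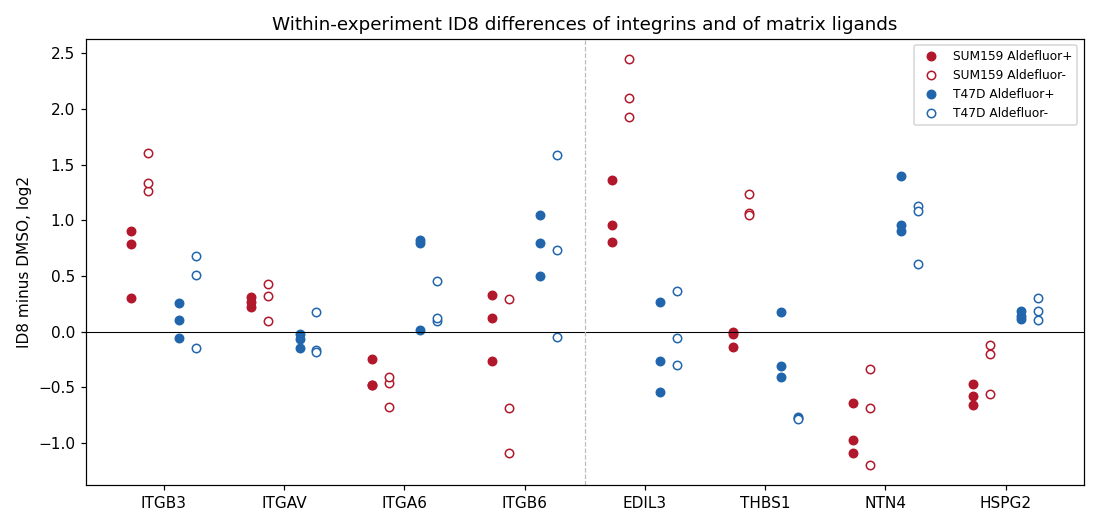
ID8 minus DMSO on the log2 scale (vertical axis) within each experiment for 4 integrin genes and, right of the dashed line, 4 genes of other matrix proteins, with SUM159 in red, T47D in blue, filled circles for Aldefluor+ and open ones for Aldefluor- cells. ITGB3 and EDIL3 were above 0 in every SUM159 experiment and fraction, and ITGA6 was below 0 in all SUM159 and above 0 in all T47D pairs.

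Between the fractions of SUM159, Aldefluor+ cells had less ITGA10 and, with ID8, more ITGA2. Under ID8, ITGA10 was 1.64, 1.68 and 1.64 in Aldefluor+ and 2.39, 2.42 and 2.35 in Aldefluor- cells. Under DMSO it was 2.22, 1.86 and 1.86 in Aldefluor+ and 2.32, 2.25 and 2.46 in Aldefluor- cells. The fractions did not overlap under either treatment, and Aldefluor+ cells were the lower in 3 of 3 experiments each time. All values lay near or below the limit of low signal. The difference was -0.74 ± 0.14 with ID8 (1.66-fold, adjusted p = 0.0468), -0.36 ± 0.14 with DMSO (adjusted p = 0.543) and -0.55 ± 0.10 over both treatments (1.46-fold, adjusted p = 0.0319). The calls of ITGA10 were lost when 2, 3, 4, 5 or 7 was the experiment left out (differences from -0.50 to -0.75, adjusted p from 0.0513 to 0.435), and also without the DMSO Aldefluor+ array of experiment 4 (-0.74 with ID8, adjusted p = 0.05, and -0.51 over both treatments, adjusted p = 0.0996). At unchanged differences both calls were also lost with a trended, robust variance prior (adjusted p = 0.11 and 0.072), with all probe sets tested (0.0979 and 0.0762) and with SUM159 arrays alone (0.12 and 0.0714).

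ITGA2, the alpha subunit of a collagen receptor of epithelial cells, was 6.52, 6.68 and 6.78 in Aldefluor+ and 5.93, 6.16 and 6.09 in Aldefluor- SUM159 cells with ID8. With DMSO it was 6.44, 6.20 and 6.24 in Aldefluor+ and 6.27, 6.08 and 6.22 in Aldefluor- cells. The fractions stood apart with ID8 and overlapped with DMSO. The difference was 0.59 ± 0.12 with ID8 (1.51-fold, adjusted p = 0.0468) and 0.10 ± 0.12 with DMSO (adjusted p = 0.888), and the difference between these effects was 0.49 ± 0.16 (adjusted p = 0.576). Its call was lost when any 1 experiment was left out (0.55 to 0.63, adjusted p from 0.0961 to 0.352), and it was also lost without the DMSO Aldefluor+ array of experiment 4 (adjusted p = 0.05), with all probe sets tested (adjusted p = 0.0974) and with SUM159 arrays alone (adjusted p = 0.227). Over both treatments the difference was 0.35 ± 0.08 (adjusted p = 0.12, and 0.0383 with the trended, robust prior).

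In SUM159 with ID8, 1 member was called higher and 1 lower in Aldefluor+ cells, against 0.201% of all genes. Over both treatments it was 0 higher and 1 lower, against 0.219%. With DMSO limma called 0 members and 0.0223% of all genes, while 6 members and 7.95% of all genes had an unadjusted p under 0.05. Without experiment 2, 3 or 4 the count of all genes called fell from 45 to 5 to 6 with ID8 and from 49 to 3 to 5 over both treatments. The median over both treatments was 0.05 for members and -0.01 for all genes, with 19 of 35 above 0. The highest averaged difference among members with a mean of at least 2 belonged to ITGB4, the hemidesmosomal beta subunit, without passing the test. With DMSO, ITGB4 was 4.62, 4.60 and 4.22 in Aldefluor+ and 3.44, 3.72 and 3.84 in Aldefluor- cells. With ID8 it was 4.57, 3.66 and 4.65 in Aldefluor+ and 3.79, 3.77 and 3.16 in Aldefluor- cells. The fractions stood apart with DMSO and overlapped with ID8, where experiment 3 went the other way. The averaged difference of ITGB4 was 0.77 ± 0.19 (1.70-fold, adjusted p = 0.133), while that of its partner ITGA6 was 0.12 ± 0.11. LAMA1 was next at 0.36 ± 0.11 (adjusted p = 0.308). At the low end, after ITGA10, were ITGA5 at -0.39 ± 0.12 (adjusted p = 0.296) and ITGB3 at -0.27 ± 0.13 (adjusted p = 0.593, and -0.15 without experiment 3). ITGB1, the partner of ITGA2, ITGA5 and ITGA10, differed by 0.07 ± 0.11.

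Between the fractions of T47D, ITGA2 was lower in Aldefluor+ cells under both treatments. With DMSO it was 5.62, 5.71 and 5.77 in Aldefluor+ and 6.14, 6.11 and 6.14 in Aldefluor- cells. With ID8 it was 5.67, 5.69 and 5.76 in Aldefluor+ and 6.20, 6.19 and 6.02 in Aldefluor- cells. The fractions did not overlap, and Aldefluor+ cells were the lower in 3 of 3 experiments with each treatment. The difference was -0.43 ± 0.12 with DMSO (adjusted p = 0.212), -0.43 ± 0.12 with ID8 (adjusted p = 0.172) and, past the test, -0.43 ± 0.08 over both treatments (1.35-fold, adjusted p = 0.0147). The call was lost when 5, 6 or 7 was the experiment left out (differences from -0.38 to -0.49, adjusted p from 0.0914 to 0.281), and with T47D arrays alone (adjusted p = 0.059).

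In T47D limma called 0 members between fractions with DMSO and 0 with ID8, against 0.152% and 0.366% of all genes. At an unadjusted p under 0.05 there were 3 and 6 members, beside 8.96% and 8.93% of all genes. Without experiment 5, 6 or 7 the count of all genes called fell from 34 to 5 to 12 with DMSO and from 82 to 14 to 28 with ID8. Over both treatments it called 0 members higher and 1 lower, against 0.875% of all genes, a count of 196 that was 48, 68 and 63 without experiment 5, 6 and 7. The median was 0.08 for members and -0.003 for all genes, with 24 of 35 above 0. By family the medians were 0.03 for integrin alpha, 0.145 for integrin beta (7 of 8 above 0) and 0.155 for laminin genes (7 of 10 above 0). Among members with a mean of at least 2, the highest were ITGB8 at 0.42 ± 0.15 (adjusted p = 0.239), LAMB2 at 0.33 ± 0.09 (adjusted p = 0.124) and ITGB5 at 0.29 ± 0.16 (adjusted p = 0.556, and 0.15 without experiment 6). LAMB3 (0.49 ± 0.15) and LAMA4 (0.38 ± 0.11), which have means below 2, also stood above ITGB5. ITGB8 differed by 0.82 ± 0.21 with ID8 (adjusted p = 0.133) and by 0.03 ± 0.21 with DMSO (-0.06 without experiment 6), but the difference between these effects was not called (0.79 ± 0.29, adjusted p = 0.757). Low among the same members, after ITGA2, were LAMA1 at -0.17 ± 0.11 (adjusted p = 0.639) and ITGB1 at -0.09 ± 0.11 (adjusted p = 0.837, and 0.012 without experiment 6). Of the members below a mean of 2, 6 lay below ITGB1, the lowest being ITGAL (-0.26 ± 0.13, adjusted p = 0.512) and ITGAE (-0.22 ± 0.15, adjusted p = 0.659).

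The fraction difference of ITGA2 was opposite in the lines, at 0.35 ± 0.08 in SUM159 and -0.43 ± 0.08 in T47D. SUM159 minus T47D was 0.78 ± 0.12 (adjusted p = 0.00414), and the call was lost without experiment 5 (0.73, adjusted p = 0.0678) or 6 (0.77, adjusted p = 0.0602). ITGA2 was the only member called for a difference of fraction effects between lines, against 0.478% of all genes, a count of 107 that was 36 to 55 with 1 experiment left out. ITGA10 differed by -0.63 ± 0.14 between lines (adjusted p = 0.0651), LAMA1 by 0.52 ± 0.15 (adjusted p = 0.199) and ITGB4 by 0.72 ± 0.26 (adjusted p = 0.364).

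**Figure D4:**
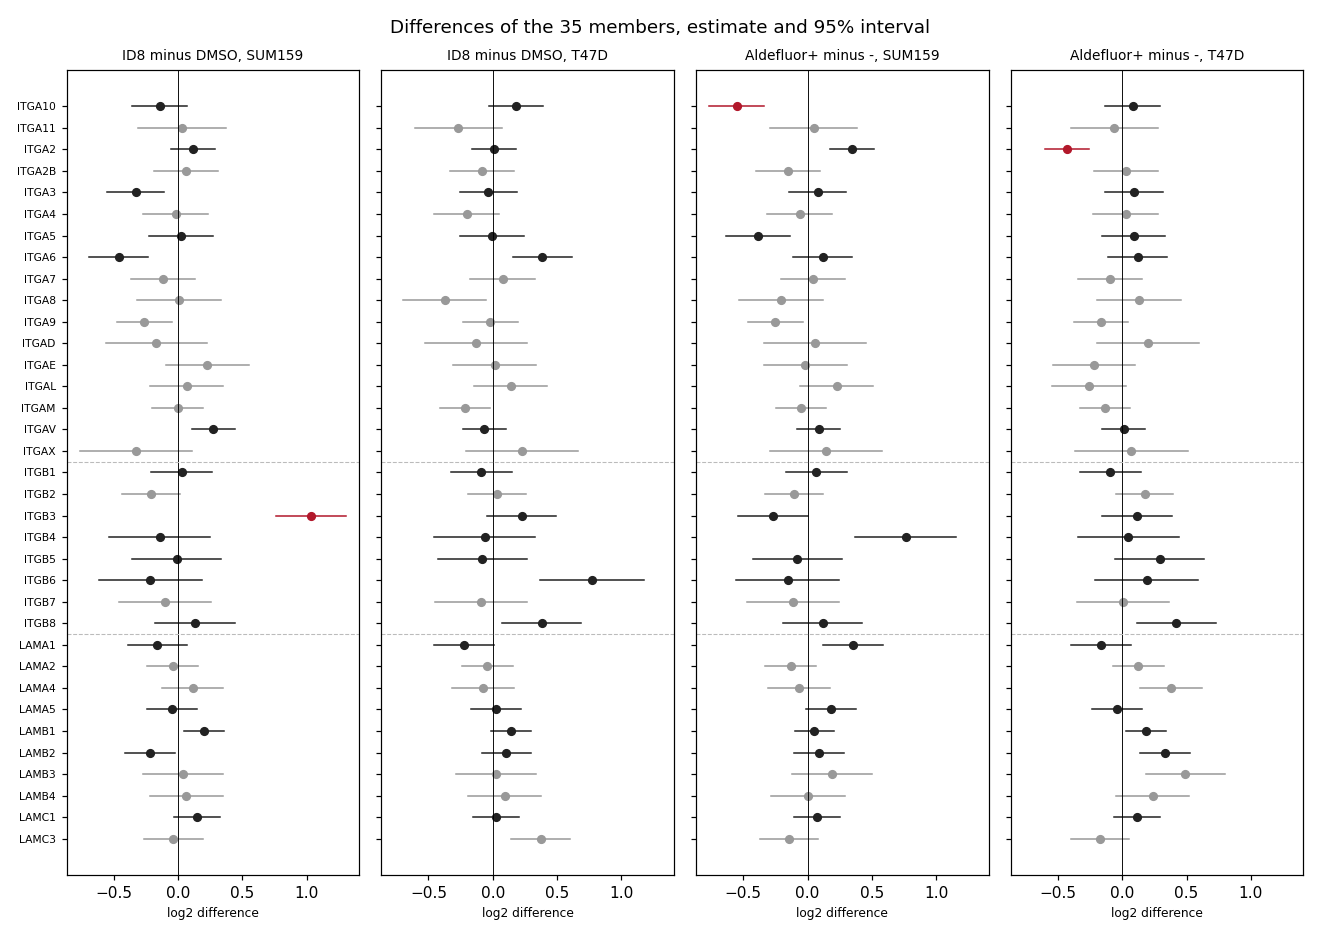
Averaged log2 differences (horizontal axis) of the 35 members with 95% intervals for ID8 minus DMSO and for Aldefluor+ minus Aldefluor- in each line, called members in red and members with a mean below 2 in grey. ITGB3 at 1.03 stands to the right in SUM159 with ID8, ITGA10 at -0.55 and ITGA2 at -0.43 stand to the left between the fractions of SUM159 and T47D, and most other intervals cross 0.

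Whether the ID8 difference depended on the fraction was tested within each line. Limma called 0 members in SUM159, with a smallest adjusted p of 0.57, and 0.00447% of all genes, while 7 members and 7.06% of all genes had an unadjusted p under 0.05. In T47D it called 0 members, with a smallest adjusted p of 0.757, and 0% of all genes, while 2 members and 5.93% of all genes had an unadjusted p under 0.05. Comparisons of one line share arrays, the DMSO groups among them, so their values are given side by side and not as separate evidence.

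Limma called 0 of the 10 laminin chains in each of the 16 comparisons, where 0 to 4 of them had an unadjusted p under 0.05, as did 5.93% to 11.3% of all genes. LAMC1, the gamma chain of most laminin trimers, had averaged ID8 differences of 0.14 ± 0.08 in SUM159 and 0.02 ± 0.08 in T47D, with a range over all 24 arrays from 6.37 to 6.80. LAMB1, its usual beta partner, differed by 0.20 ± 0.07 and 0.14 ± 0.07 and ranged from 5.59 to 6.10. LAMA5, the alpha chain of the laminins most common in adult epithelium, differed by -0.05 ± 0.09 and 0.02 ± 0.09, and both turned sign when 1 experiment was left out. These 95% intervals reach at most 0.36 on the log2 scale, for LAMB1 in SUM159. LAMB3, a chain of the laminin of hemidesmosomes, had a mean of 1.89 and differed by 0.49 ± 0.15 between the T47D fractions (adjusted p = 0.16). LAMA4, with a mean of 1.19, differed there by 0.38 ± 0.11 (adjusted p = 0.16). LAMC3, with a mean of 1.61, differed by 0.37 ± 0.11 with ID8 in T47D (adjusted p = 0.168). These chains of low signal thus had differences near the size of the one called for ITGA2 between the T47D fractions (-0.43), none past the test. They were smaller than the called difference of ITGB3 with ID8 in SUM159.

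Genes that work with the members were taken from lists. Of 30 adhesion complex genes, which link integrin tails to actin, 30 were measured. Of all genes, 0.688% were called with ID8 in SUM159 over both fractions. Among the 30, 0 were called higher there and 1 lower, PARVA, a partner of integrin-linked kinase (-0.49 ± 0.10, 1.40-fold, adjusted p = 0.0313). This call was lost without experiment 2, 3 or 4 (-0.46 to -0.52, adjusted p from 0.182 to 0.262). Limma called 0 of the 30 in each of the other 15 comparisons, where 0% to 0.875% of all genes were called. At an unadjusted p under 0.05 there were 1 to 8 of the 30, beside 5.93% to 11.1% of all genes. Between the fractions of T47D, 27 of 30 were above 0 with a median of 0.09, beside -0.003 for all genes. With ID8 in T47D 23 of 30 were above 0, with a median of 0.12, beside -0.01. Of the 30, 5 between the fractions and 4 with ID8 had an unadjusted p under 0.05, beside 11.1% and 10.9% of all genes. A shared rise of these genes was not tested. The adhesion genes with the largest averaged differences elsewhere were TNS3 (0.37 ± 0.14, adjusted p = 0.314) and RSU1 (0.29 ± 0.12, adjusted p = 0.349) with ID8 in T47D, PXN (0.42 ± 0.12, adjusted p = 0.252) and PARVB (-0.40 ± 0.13, adjusted p = 0.337) between the SUM159 fractions, and TNS3 (0.39 ± 0.14, adjusted p = 0.258) and RSU1 (0.38 ± 0.12, adjusted p = 0.175) between those of T47D.

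Of 21 other matrix ligands 20 were measured, and with ID8 in SUM159 over both fractions 2 rose and 2 fell, against 0.688% of all genes called. The list was chosen with earlier results of these data known, so its counts are no test of the ligands as a set. EDIL3, a secreted ligand of the ITGAV and ITGB3 pair, was 1.70, 1.54 and 1.54 with DMSO and 3.80, 3.98 and 3.47 with ID8 in Aldefluor- cells. In Aldefluor+ cells it was 1.72, 1.67 and 1.73 with DMSO and 2.68, 2.48 and 3.10 with ID8. All ID8 arrays stood above all DMSO arrays of SUM159. EDIL3 rose by 1.60 ± 0.13 over both fractions (3.04-fold, adjusted p = 5.51e-06) and by 2.16 ± 0.18 in Aldefluor- cells (4.46-fold, adjusted p = 1.66e-05), and both calls held without any 1 experiment. In Aldefluor+ cells the rise of EDIL3 was also called, at 1.045. That call was lost without experiment 2, 3, 4, 6 or 7 (0.89 to 1.16, adjusted p from 0.0582 to 0.25).

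THBS1, which codes for thrombospondin, another integrin ligand, rose by 1.12 ± 0.15 with ID8 in SUM159 Aldefluor- cells (2.17-fold, adjusted p = 0.00181). The call was lost without experiment 3 (1.15, adjusted p = 0.0594) or 4 (1.06, adjusted p = 0.0879). In Aldefluor+ cells THBS1 was 8.58, 8.34 and 8.27 with DMSO and 8.44, 8.33 and 8.24 with ID8, so these groups overlapped. Over both fractions the rise was 0.53 ± 0.10 (adjusted p = 0.0225), a call lost without experiment 2, 3 or 4 (0.49 to 0.56, adjusted p from 0.0806 to 0.221).

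The ligands that fell with ID8 in SUM159 over both fractions were NTN4, a netrin that binds laminins, and HSPG2, the basement membrane proteoglycan perlecan. NTN4 fell by 0.82 on the log2 scale (SE 0.11, adjusted p = 0.00134), a call lost without experiment 4 (-0.66, adjusted p = 0.0619), and HSPG2 fell by 0.43 (SE 0.08, adjusted p = 0.0148), a call lost without experiment 2, 3 or 4 (-0.34 to -0.48, adjusted p from 0.0882 to 0.287). Both were also called lower in Aldefluor+ cells alone, NTN4 at -0.900 and HSPG2 at -0.568. There the call of NTN4 was lost without experiment 2, 3, 4, 6 or 7 (adjusted p from 0.0637 to 0.234). That of HSPG2 was lost without any 1 experiment (adjusted p from 0.0787 to 0.318). With SUM159 arrays alone the calls over both fractions were lost for HSPG2 (adjusted p = 0.105), PARVA (adjusted p = 0.0628) and THBS1 (adjusted p = 0.0855). With all probe sets tested they were lost for PARVA (adjusted p = 0.0687) and THBS1 (adjusted p = 0.0513), and with the trended, robust prior for HSPG2 (adjusted p = 0.0543). The Aldefluor+ calls of EDIL3, NTN4 and HSPG2 were lost with SUM159 arrays alone and with all probe sets tested (adjusted p from 0.0646 to 0.2). In T47D NTN4 rose with ID8 over both fractions by 1.01 ± 0.11 (2.02-fold, adjusted p = 0.000815). It was the only call of the list there, beside 0.505% of all genes. NTN4 was also higher in Aldefluor+ than in Aldefluor- T47D cells by 1.53 ± 0.11 (2.89-fold, adjusted p = 2.52e-06), and THBS1 was lower by 0.66 on the log2 scale (-0.66 ± 0.10, adjusted p = 0.00431), a call lost without experiment 5 (-0.60, adjusted p = 0.0969) or 7 (-0.62, adjusted p = 0.0924). Between the fractions of SUM159 with ID8, 0.201% of all genes were called. Of the 20 ligands limma called 0 higher there and 1 lower, EDIL3 (-0.996 ± 0.184, 1.99-fold, adjusted p = 0.0437). This call was lost when any 1 experiment was left out (-0.74 to -1.31, adjusted p from 0.0535 to 0.536). Over both treatments limma called 0 of the 20, with 2 at an unadjusted p under 0.05, beside 8.46% of all genes. FBN1 (-0.72 ± 0.16, adjusted p = 0.0939) and EDIL3 (-0.44 ± 0.13, adjusted p = 0.276) were the furthest from 0 there.

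Of 9 other laminin receptors and hemidesmosome genes 6 were measured. SDC1, a syndecan that binds laminin through its sugar chains, was higher in Aldefluor+ than in Aldefluor- SUM159 cells by 0.62 ± 0.10 over both treatments (1.54-fold, adjusted p = 0.0127). Its log2 signal was 4.59, 4.61 and 4.41 with DMSO and 4.33, 4.49 and 4.60 with ID8 in Aldefluor+ cells, against 3.92, 4.01 and 4.08 with DMSO and 3.80, 3.79 and 3.70 with ID8 in Aldefluor- cells. The fractions did not overlap, but the call was lost without experiment 2, 3 or 4 (0.61 to 0.63, adjusted p from 0.144 to 0.245). It was the only call of this list in the 16 comparisons. Of all genes, 0.219% were called between the SUM159 fractions over both treatments. In the other 15 comparisons 0 to 1 of the list's genes had an unadjusted p under 0.05, beside 5.93% to 11.3% of all genes. DST, the plakin that ties ITGB4 to keratin, differed by -0.18 ± 0.07 with ID8 in SUM159 (adjusted p = 0.371), and PLEC by -0.16 ± 0.14 there.

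One marker of the SUM159 line moved with ID8 in that line. AXL, a receptor kinase of mesenchymal cells, fell by 0.62 on the log2 scale over both fractions (adjusted p = 0.0193, lost without experiment 2, 3 or 4 at -0.58 to -0.67, adjusted p from 0.168 to 0.231). Of the 7 measured line markers 1 was above 0, with a median of -0.28, and the mean of the list ranged from 4.15 to 4.86 over the 8 groups. Of the leukocyte markers 7 of 9 were above 0, with a median of 0.19 and 0 calls, and the mean of that list ranged from 1.47 to 1.63. Their part in the rise of ITGB3 was not tested.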

How the data were processed

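Affymetrix gene arrays of 24 samples were analysed from the deposited log2 signals, which the authors made by robust multiarray averaging and adjusted with ComBat, per the labels and the series' design text. Which batches and covariates ComBat received is not given in the sources used here. In the deposited values, experiment means differed from their line mean by an SD over genes of at most 0.0226. Adjustment with ComBat can compress differences and spread. The fit with experiments as a block left 12 residual degrees of freedom, and whether these account for what ComBat used is not known.

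Probe sets were named through the platform annotation. Of 53617, 23871 had 1 symbol, 1842 several and 27904 none. For 22572 of the 23871 the gene number was found in RefSeq, and the symbol was taken from there, whether or not it differed. For genes with several probe sets (632) the one with the highest mean was taken.

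Limma 3.58.1 (R 4.3.3; lmFit, eBayes) fitted 8 group means plus a block for experiment number inside each line, a pairing that comes from the labels' separate experiments. The 16 contrasts were adjusted by Benjamini-Hochberg over all 22395 genes and called under 0.05. A fold is 2 raised to the log2 difference. The procedure was also run on simulated data drawn without line, experiment or batch structure. That run does not check it for values adjusted with ComBat. Values in each array are printed for called members, for the 3 highest and 3 lowest members per averaged comparison with a mean of at least 2 (in part) and for their partners. Genes of other lists were named when called, otherwise the 2 furthest from 0 in averaged comparisons. Values in each array of list genes, and LAMB3, LAMA4, LAMC3, LAMC1, LAMA5 and AXL, were added after their values were seen. Members and lists were chosen with earlier results of these data known.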

Additional observations from a re-analysis of the deposited data

Results flagged for a closer look

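For 2 members and 5 other genes the same contrast gave different effects in the lines, by a test of the difference itself in limma (SUM159 minus T47D, log2 scale). For ID8 minus DMSO over both fractions, the difference was 1.69 ± 0.18 (SE) for EDIL3 (adjusted p = 0.000394), 1.01 ± 0.15 for THBS1 (adjusted p = 0.00445), -1.83 ± 0.16 for NTN4 (adjusted p = 4.31e-05), -0.60 ± 0.11 for HSPG2 (adjusted p = 0.018) and -0.84 ± 0.15 for ITGA6 (adjusted p = 0.0163). For Aldefluor+ minus Aldefluor- over both treatments, it was 2.82 ± 0.17 for ALDH1A1 (adjusted p = 4.29e-07), 0.78 ± 0.12 for ITGA2 (adjusted p = 0.00414), -1.72 ± 0.16 for NTN4 (adjusted p = 4.03e-05) and 0.84 ± 0.15 for THBS1 (adjusted p = 0.0128). Of all genes, 0.647% were called for the difference in ID8 effects and 0.478% for that in fraction effects. The calls of EDIL3, ALDH1A1 and NTN4 held without any 1 experiment. The call of ITGA6 was lost when any experiment other than 5 was left out (adjusted p from 0.0824 to 0.11). That of ITGA2 was lost without experiment 5 (adjusted p = 0.0678) or 6 (adjusted p = 0.0602). The call of HSPG2 was lost without any 1 of the 6 (-0.51 to -0.65, adjusted p from 0.0531 to 0.158), that of THBS1 for ID8 without experiment 6 (0.97, adjusted p = 0.0573) and that of THBS1 for the fractions without 2, 3, 5, 6 or 7 (0.68 to 0.93, adjusted p from 0.0588 to 0.111). With the trended, robust prior the call of HSPG2 was lost as well (adjusted p = 0.0612).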

How the results depend on the processing

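Without the replicate block for experiment, more members were called: 2 with ID8 in SUM159 Aldefluor+, 2 in T47D Aldefluor+, 2 between T47D fractions with DMSO and 3 with ID8, 3 with ID8 over both fractions of SUM159 and 3 of T47D, 3 and 4 between the fractions of SUM159 and T47D over both treatments, and 4 and 3 for the differences between lines in ID8 and fraction effects. All-gene counts rose too, for example from 154 to 669 with ID8 over both fractions of SUM159. With a filter at a mean of 2 the counts were 3 with ID8 in SUM159, 2 between its fractions, and 2 and 2 between lines. With all probe sets they were 0 and 0 between the SUM159 fractions with ID8 and over both treatments, as they were with arrays of the same line only (and 0 between the T47D fractions) and when experiment 4's array of SUM159 DMSO Aldefluor+ cells was left out. A trended, robust prior gave 1 between the SUM159 fractions with ID8 and 1 over both treatments (ITGA2 each time, as the calls of ITGA10 ended), 3 with ID8 in SUM159 and 2 between lines for ID8, and quantile normalization gave 2 there. Leaving out 1 experiment gave 0 to 1 calls for ID8 in SUM159 Aldefluor-, for fractions in SUM159 with ID8 and over both treatments, for fractions in T47D and for both differences between lines, and 1 to 2 for ID8 over both fractions of SUM159. Of 103 differences run under these alternatives, 9 changed sign, each of them uncalled and when 1 experiment was left out. Over the experiments left out, these ranged for ID8 from -0.060 to 0.177 (LAMB2, SUM159 Aldefluor-), -0.122 to 0.012 (LAMA5, SUM159), -0.032 to 0.106 (LAMA5, T47D), -0.004 to 0.038 (LAMC1, T47D) and -0.224 to 0.074 (ITGB4, between lines). Between fractions they ranged from -0.061 to 0.160 (ITGB8, T47D with DMSO), -0.019 to 0.189 (ITGB1, SUM159), -0.249 to 0.012 (ITGB1, T47D) and -0.022 to 0.185 (ALDH1A1, T47D). ITGB3 over both fractions of SUM159 kept its call under every alternative run. The cause of these changes was not tested. Values below a signal of 2 are close to background, and 3 arrays a group limit the precision.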
